A study of Homo sapiens with 2 samples.

Results

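The 38 genes described here belong to the response driven by the transcription factor ATF4 and to the supply of amino acids and one-carbon units, and they were read in single cells of CHLA9 and TC71, established lines of Ewing sarcoma. They were taken by name, with no measured value in the rule, but with earlier results of these data known. All 38 were among the 33538 genes counted in both libraries. The study sequenced single cells of established Ewing sarcoma lines to see how developmental programs and markers of the EWSR1-FLI1 fusion vary from cell to cell, and the other cell line and the xenografts were not analysed here. CHLA9 was cultured in IMDM with 20% fetal bovine serum and an insulin, transferrin and selenium supplement. TC71 was cultured in RPMI-1640 with 10% serum. Neither line received a treatment, and both were detached with trypsin and loaded for 10x 3' v3.1 droplet libraries. CHLA9 was sequenced on a HiSeq and a NovaSeq and TC71 on a HiSeq alone, so line, medium and sequencing cannot be told apart in any difference below. There was 1 library per line, cells of a library are not replicates, and no test was made between the lines.

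ATF4 is the main effector of the integrated stress response. Kinases that sense lack of amino acids, unfolded protein in the endoplasmic reticulum, double-stranded RNA or lack of heme phosphorylate the initiation factor eIF2, which lowers protein synthesis in general but lets the ATF4 message be translated. ATF4 then pairs with C/EBP family partners on composite elements near genes for amino acid synthesis, amino acid import, tRNA charging and mitochondrial folate metabolism, and with lasting stress it also raises genes such as DDIT3 and TRIB3. Because control of ATF4 is largely translational, its mRNA level is not a reading of its activity. In Ewing sarcoma the fusion EWSR1-FLI1 has been tied to high expression of serine synthesis genes.

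The core of the C/EBP-ATF composite element was searched for in promoters, because ATF4 acts through it. Members such as ASNS and CHAC1 are known as ATF4 targets in part for this element, so its share among them is built into the choice of genes and is a description. The letters were TGATGNAA, read on either strand, so that TTNCATCA is the same core on the other strand, and no other motif was searched. Promoters were those of RefSeq on GRCh38.p14, from 250 bases before to 50 after each start, and 30 of the 38 members matched by symbol or synonym. The core was present in 9 of these 30 genes (30%), against 4.46% of 27305 genes with a promoter in the table. By role, it was in 4 of 6 transporters, 2 of 12 genes of the ATF4 and stress group, 1 of 3 one-carbon genes, 1 of 4 genes of asparagine, proline and cysteine synthesis, 1 of 2 tRNA synthetases and 0 of 3 genes of serine and glycine synthesis. The 9 sites are shown on the gene's own strand with the core in capitals and up to 10 bases on either side.
CHAC1, chr15:40953252-40953279, plus strand: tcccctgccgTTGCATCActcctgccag
CEBPG, chr19:33374061-33374088, plus strand: gcgcggcgtcTGATGCAAcctgccggca
MTHFD1L, chr6:150866347-150866374, plus strand: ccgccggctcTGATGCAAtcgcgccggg
ASNS, chr7:97872459-97872486, minus strand: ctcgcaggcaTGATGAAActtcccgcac
SLC7A1, chr13:29595664-29595691, minus strand: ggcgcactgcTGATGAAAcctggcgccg
SLC3A2, chr11:62881726-62881748, plus strand: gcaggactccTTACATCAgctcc
SLC1A4, chr2:64989382-64989409, plus strand: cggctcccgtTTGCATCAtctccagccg
SLC1A5, chr19:46784894-46784921, minus strand: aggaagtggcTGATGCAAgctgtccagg
AARS, chr16:70289676-70289703, minus strand: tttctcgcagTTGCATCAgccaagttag
Of the 9 cores, 6 lay before the RefSeq start, between 209 and 42 bases upstream of it at their first base, and those of SLC1A4, SLC7A1 and SLC3A2 spanned or followed the start. In GENCODE 44 the CEBPG core lay in an intron and the other 8 in an exon of at least 1 transcript. A match is a run of letters and was not tested for binding, and nothing follows for members without one, since elements of this kind can lie outside the window or differ from the core.

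Unique molecular identifiers (UMIs) count captured RNA molecules at their 3' ends, so levels are given as summed UMIs per 1000000 (CPM) without division by transcript length. A kept cell had 5000 UMIs or more, 2000 genes or more and a mitochondrial share of 15% or less. This left 4524 of 5077 CHLA9 barcodes and 1729 of 8468 TC71 barcodes, with medians of 34656 and 33370 UMIs and 6532 and 6047 genes. Most of the TC71 barcodes left out, 5869, held fewer than 5000 UMIs. Median mitochondrial shares were 7.59% and 9.05%. The libraries shared 16 barcodes, 3 of them among kept cells. All 8 Ewing sarcoma markers, among them CD99, NR0B1 and the fusion partner FLI1, were detected in both lines. The 11 markers of other cell types summed to 1.01 CPM in CHLA9 and 1.42 in TC71, with 5 and 8 of them at 0. Doublets were not removed, and the results without the highest doublet scores stand in the closing section.

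With these cells, members stood higher in either line, also within a role. The 2 subunits of the large neutral amino acid transporter LAT1, SLC7A5 and SLC3A2, stood far higher in CHLA9, while the mitochondrial folate genes MTHFD2, MTHFD1L and ALDH1L2, the asparagine synthetase gene ASNS, the exchanger SLC1A4 and 3 tRNA synthetase genes stood at least 2-fold higher in TC71, and serine synthesis genes were close. Of the 38 members, 30 had at least 10 CPM on average over the lines. Among these, 3 were at least 2-fold higher in CHLA9, 11 at least 2-fold higher in TC71 and 16 within 2-fold. Over all 8565 genes past the same filter, 14.8% were at least 2-fold higher in CHLA9 and 7.01% at least 2-fold higher in TC71. The median log2 difference, CHLA9 minus TC71, was -0.23 over the 30 members and 0.19 over all genes. DDIT3, DDIT4, STC2, ALDH1L2 and SLC7A11 passed the filter although they were under 10 CPM in 1 line, so their difference is partly fixed by the filter. Of the 25 members with at least 10 CPM in both lines, 2 were at least 2-fold higher in CHLA9 and 7 in TC71. TMM scaling moved every log2 difference by 0.11 towards TC71, and the signs of CEBPG and SLC1A5, both near 0, turned with it.

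**Figure D1:**
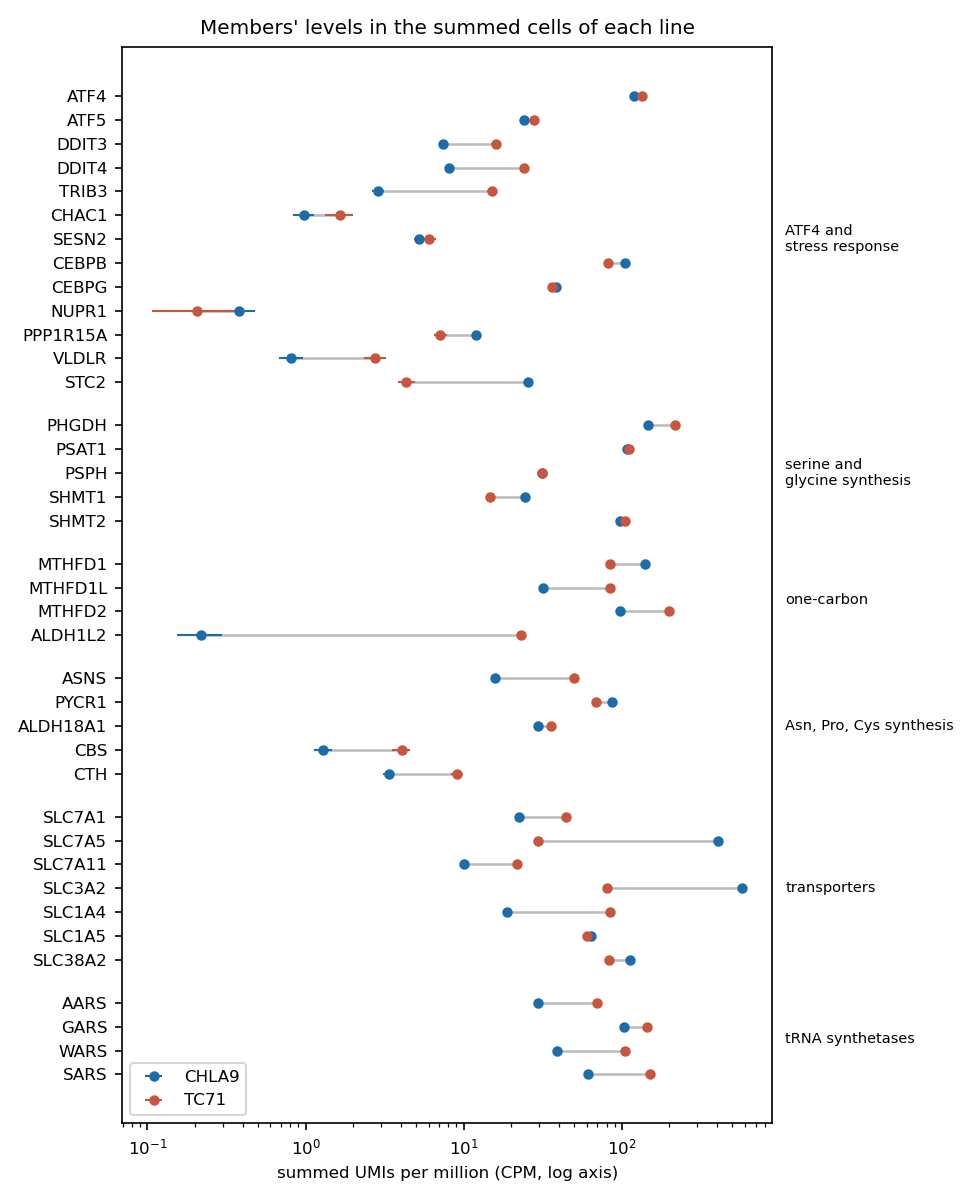
Level of each of the 38 members in the summed kept cells of CHLA9 (blue) and TC71 (red), in CPM on a log axis, with exact 95% Poisson intervals, which are narrower than the points for most genes. SLC7A5, SLC3A2 and STC2 lie far to the right in CHLA9, ALDH1L2 lies 106-fold higher in TC71, and PSAT1, PSPH and SHMT2 nearly coincide.

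ATF4 itself (ENSG00000128272, chr22:39519695-39522683) was at 119.6 CPM for CHLA9 against 134 CPM for TC71, a log2 difference of -0.16, and had a UMI in 66.1% and 70.0% of the cells. ATF5, a related factor that is also raised by translation under stress, was as close, with 24.1 CPM in CHLA9 and 27.8 CPM in TC71. Their C/EBP family partners were close as well. CEBPG was at 38.6 and 36.4 CPM, and CEBPB, which also serves in inflammatory and differentiation programs, was at 104 CPM in CHLA9 and 81.3 CPM in TC71.

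The stress effectors differed in both directions. DDIT3, or CHOP, the factor of the terminal stress response, had 7.39 CPM (95% Poisson interval 6.99 to 7.80) for CHLA9 against 16.0 CPM (15 to 17.0) for TC71, or -1.11 on the log2 scale. DDIT4, or REDD1, an inhibitor of mTORC1, was at 8.12 CPM in CHLA9 and 23.9 CPM in TC71, a log2 difference of -1.56. TRIB3, a pseudokinase that restrains ATF4 and DDIT3, was under the filter, with 2.88 CPM for CHLA9 against 15 CPM for TC71, 5.22-fold higher in the latter. STC2, a secreted glycoprotein, went the other way, with 25.6 CPM in CHLA9 and 4.34 CPM in TC71, a log2 difference of 2.56. Each of these genes was under 10 CPM in 1 line, so the differences of DDIT3, DDIT4 and STC2 are partly fixed by the filter and are a description.

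The other members of the group were low in both lines. PPP1R15A, or GADD34, the phosphatase subunit that ends the response by dephosphorylating eIF2, was at 12 and 7.13 CPM. SESN2, a leucine sensor, was at 5.18 and 6.0 CPM, and CHAC1, which degrades glutathione, at 0.98 CPM in CHLA9 and 1.65 CPM in TC71. VLDLR, a lipoprotein receptor, was at 0.81 and 2.76 CPM. NUPR1, a stress-induced chromatin protein, was barely detected, at 0.38 CPM in CHLA9 and 0.21 CPM in TC71, with a UMI in 0.42% and 0.18% of the cells.

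The chain that makes serine from a glycolytic intermediate was at like levels in the lines. PHGDH, its first enzyme, was at 145 CPM in CHLA9 and 216 CPM in TC71, a log2 difference of -0.57. PSAT1, the second enzyme, was at 108 and 111 CPM, and PSPH, the last, at 31.1 CPM in both lines. SHMT2, which splits serine into glycine and a one-carbon unit in mitochondria, was at 97.7 CPM in CHLA9 and 105 CPM in TC71. Its cytosolic counterpart SHMT1 leaned the other way, at 24.2 CPM in CHLA9 and 14.7 CPM in TC71, a log2 difference of 0.72. All 5 genes of this group were within 2-fold, which with 1 library per line does not show that the lines were alike.

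Downstream of serine, the mitochondrial one-carbon genes were higher in TC71. MTHFD2, which oxidizes methylene-tetrahydrofolate in mitochondria, was at 96.8 CPM in CHLA9 and 198 CPM in TC71, a log2 difference of -1.03 that lay just past the 2-fold limit. MTHFD1L, which releases formate, was at 31.7 CPM in CHLA9 and 84.6 CPM in TC71, a log2 difference of -1.42. ALDH1L2 (chr12:105019784-105107643), which oxidizes formyl-tetrahydrofolate and yields mitochondrial NADPH, had 0.22 CPM (0.15 to 0.30) for CHLA9 against 23.0 CPM (21.8 to 24.3) for TC71, a log2 difference of -6.73 or 106-fold. A UMI of ALDH1L2 was seen in 0.22% of CHLA9 cells and in 18.8% of TC71 cells. MTHFD1, the cytosolic enzyme of the same pathway, had the opposite sign, with 139.5 CPM in CHLA9 and 83.9 CPM in TC71, a log2 difference of 0.73. A gene outside the members, GLDC of the glycine cleavage system, had a pattern like that of ALDH1L2, at 0.07 CPM for CHLA9 against 19.9 CPM for TC71, and was named after its values were seen.

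Asparagine synthetase, ASNS (chr7:97851677-97872542), a standard reporter of ATF4, had 15.8 CPM (15.2 to 16.4) for CHLA9 against 49.8 CPM (48.0 to 51.7) for TC71, or -1.66 on the log2 scale. The proline pathway did not follow it. ALDH18A1, which starts proline synthesis from glutamate, was at 29.5 CPM for CHLA9 against 35.4 CPM for TC71, and PYCR1, which completes it, was at 87.2 and 69.1 CPM. The transsulfuration enzymes that make cysteine were low, with CBS at 1.3 CPM for CHLA9 against 4.04 CPM for TC71, and CTH at 3.35 and 9.07 CPM.

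Among the transporters were the largest levels of any member in CHLA9, though not in TC71. SLC7A5 (ENSG00000103257, chr16:87830023-87869507), the light chain of LAT1, had 403 CPM (400.4 to 406) for CHLA9 against 29.4 CPM (28 to 30.8) for TC71, or 3.78 on the log2 scale. SLC3A2 (ENSG00000168003, chr11:62856004-62888880), the heavy chain that LAT1 shares with the cystine importer xCT, was at 578 CPM in CHLA9 and 80.2 CPM in TC71, a log2 difference of 2.85. These 2 genes had a UMI in 95.4% and 99.0% of CHLA9 cells, and in 25.7% and 52.5% of TC71 cells.

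The light chain of xCT itself did not share this pattern. SLC7A11 was at 9.97 CPM in CHLA9 and 21.7 CPM in TC71, a log2 difference of -1.12, so the heavy chain stood 58.0-fold over it in CHLA9 and 3.69-fold in TC71. SLC1A4, an exchanger of alanine, serine and cysteine, was the transporter with the largest difference towards TC71, with 18.8 CPM in CHLA9 and 84.1 CPM in TC71, a log2 difference of -2.16. SLC7A1, which imports arginine and lysine, lay just inside the limit, with 22.5 and 44.3 CPM and a log2 difference of -0.97. SLC1A5, the glutamine exchanger ASCT2, was at 64.2 CPM for CHLA9 against 59.9 CPM for TC71, and SLC38A2, the sodium-coupled neutral amino acid importer SNAT2, at 112 and 82.5 CPM. Summed, the 7 transporters made up 1209 CPM in CHLA9 and 402 CPM in TC71.

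All 4 tRNA synthetases among the members, which load amino acids onto their tRNAs, were higher in TC71, and 3 of them by at least 2-fold. SARS, for serine, was at 61.1 CPM in CHLA9 and 151 CPM in TC71, a log2 difference of -1.30. WARS, for tryptophan, was at 39.1 and 105 CPM, a log2 difference of -1.42. AARS, for alanine, was at 29.5 and 69.2 CPM, a log2 difference of -1.23. GARS, for glycine, was at 103.5 CPM in CHLA9 and 145 CPM in TC71, a log2 difference of -0.48. Of 16 other cytosolic synthetase genes, 1, KARS, was at least 2-fold higher in TC71 and 0 in CHLA9, with a median log2 difference of -0.12.

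Neighbouring parts of the pathway were counted in the same way, over the genes of each list with at least 10 CPM on average. Over all genes past this filter, 14.8% were at least 2-fold higher in CHLA9 and 7.01% in TC71, and the counts below are to be read beside these shares. Of 13 genes for eIF2, its exchange factor, its kinases and its phosphatase, 0 passed 2-fold in either direction. The kinase genes EIF2AK4 (GCN2, which senses uncharged tRNA) and EIF2AK3 (PERK, of the endoplasmic reticulum) were at 96.4 and 3.35 CPM in CHLA9 and at 126 and 4.28 CPM in TC71. Of 16 ATF6 and XBP1 targets, which serve protein folding in the endoplasmic reticulum, 3 were higher in TC71 (HERPUD1, DNAJC3 and XBP1) and 0 in CHLA9. Of 11 other amino acid enzymes, 2 were higher in CHLA9 and 4 in TC71. The glutamine synthetase gene GLUL was at 79.4 CPM in CHLA9 and 33.4 CPM in TC71. Of the other folate genes, ATIC, of purine synthesis, was higher in TC71, at 28.2 CPM in CHLA9 and 134 CPM in TC71. Of 8 further ATF4 targets 3 were higher in TC71 (SLC38A1, MAP1LC3B and HERPUD1, which is on both lists) and 0 in CHLA9. Of 4 immediate early genes, which can mark handling of cells, 1 was higher in CHLA9, and of 10 heat shock genes 1 was higher in TC71. Of the cell cycle lists, 5 of 42 S genes and 4 of 54 G2M genes were higher in CHLA9, and 1 and 0 were higher in TC71. The part of handling or cycling in the members' differences was not tested.

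To compare cells of like depth, each cell was thinned at random to 10000 UMIs, which left 4510 CHLA9 and 1670 TC71 cells. For each member, Spearman's rho was computed over a library's cells between its UMIs and the mean of ln(1 + UMIs) over the other 37 members. All points of such a rho share 1 library, so rho describes that library and has no p. Members with a mean of at least 0.05 UMIs per thinned cell were used.

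The members varied together weakly, and more in TC71 than in CHLA9 at this depth. In CHLA9 the median rho over 30 members was 0.0339, from -0.0203 for SHMT1 to 0.0735 for ATF4, and 26 were above 0. In TC71 the median over 33 members was 0.0745, from 0.00691 for MTHFD1L to 0.210 for ATF4, and all 33 were above 0. Over all other genes, against the score of all members, the medians were 0.00268 in CHLA9 and 0.00676 in TC71. At this sparsity, 0 members reached 0.1 in CHLA9, where 0% of 9958 other genes did. In TC71, 10 members reached 0.1, where 0.644% of 9788 other genes did. SESN2, which was under the limit of 0.05 UMIs in CHLA9, had 0.0877 there. Among the members used, ATF4 had the highest rho in both lines.

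In TC71 the next were PSAT1 with 0.172 and SLC7A11 with 0.166, the enzyme of serine synthesis and the cystine importer. WARS followed with 0.150, PHGDH with 0.145, MTHFD2 with 0.137, SARS with 0.110, ASNS with 0.108, SLC1A4 with 0.107 and SLC3A2 with 0.102. In CHLA9 the same 10 genes ranged from 0.0128 for WARS to 0.0735 for ATF4, and after ATF4 came SLC3A2 (0.0730), PSAT1 (0.0722) and SLC7A11 (0.0684). The rho of a member with its cell's full UMI total was at most 0.0918 in CHLA9 and 0.121 in TC71. Some members followed other traits of the cell more closely than the other members. In CHLA9, MTHFD1 had 0.180 with the S score defined below and SLC3A2 had -0.142 with the G2M score. In TC71, PHGDH had -0.175 with the mitochondrial share. The part of depth, cycle and mitochondrial share in the rho between members was not tested.

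**Figure D2:**
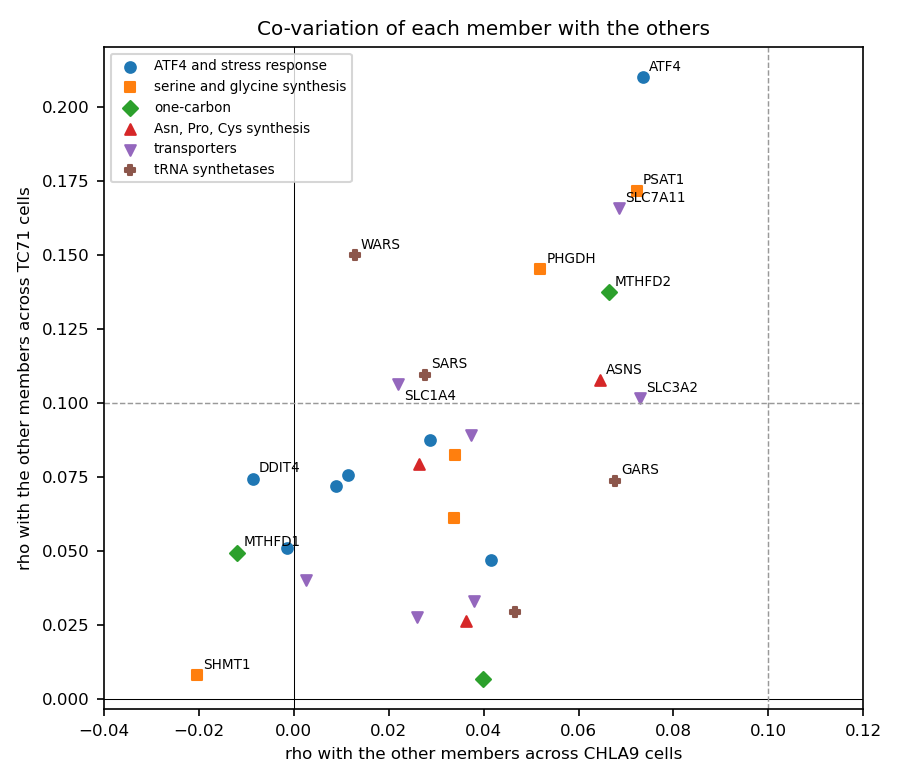
Spearman's rho of each member with the mean of the other members across cells thinned to 10000 UMIs, CHLA9 on the horizontal axis and TC71 on the vertical axis, for members with enough UMIs in both lines, with the role as the marker and dashed lines at 0.1. ATF4 is at the top right with 0.0735 and 0.210, and every member is above 0 in TC71.

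The number of members at 0.1 changed with the depth of thinning. Each depth leaves out the cells below it, so depth and the set of cells changed together. With cells thinned to 20000 UMIs, an alternative chosen after seeing the data, 6 members reached 0.1 in CHLA9, where 0.0602% of other genes did, and 16 in TC71, where 2.97% did. The 6 in CHLA9 were ATF4 (0.142), GARS (0.140), MTHFD2 (0.125), PHGDH (0.114), SLC7A1 (0.113) and SLC7A11 (0.108). In TC71 the highest were ATF4 (0.265), PHGDH (0.229) and PSAT1 (0.216). With 5000 UMIs, 1 member of TC71 was left at 0.1. Among cells under the median of both cycle scores, which are far fewer, the members' median was 0.0402 for CHLA9 against 0.113 for TC71.

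Pairs of members were read as well. Pairs of other genes were not computed, so no background stands beside the counts and medians of pairs. In CHLA9, 1 of 435 pairs had a rho of at least 0.1, and it was the LAT1 pair SLC7A5 and SLC3A2, with 0.166. The same pair had 0.0558 in TC71, where SLC7A5 averaged 0.314 UMIs per thinned cell against 4.04 in CHLA9, so the values were not taken at like counts. In TC71, 8 of 528 pairs reached 0.1, led by ASNS with PYCR1 (0.122), ATF4 with SLC7A11 (0.110) and PHGDH with SARS (0.109), and PHGDH with SLC3A2 had 0.108. The median pair rho was 0.00858 across CHLA9 cells and 0.0175 across TC71 cells.

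Outside the members, the 5 genes whose UMIs followed the members' score most closely in both lines were ranked by the lower of the 2 values. The first was YARS (0.0917 in CHLA9, 0.114 in TC71), the tyrosine synthetase. The others were DDX21 (0.0820 and 0.136), an RNA helicase of ribosome production, EIF2S2 (0.0843 and 0.0750), the beta subunit of eIF2, PPA1 (0.0666 and 0.10), a pyrophosphatase, and TARS (0.0654 and 0.178), the threonine synthetase.

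The spread of a member over cells was measured as the variance over the mean of its UMIs per thinned cell, which is about 1 for random sampling alone. At least 1.5 was reached by 6 members in CHLA9, where 3.14% of 9988 genes did, and by 3 members in TC71, where 2.52% of 9821 did. In CHLA9 they were CEBPB (2.02), ATF5 (2.01), STC2 (1.79), SLC3A2 (1.7), DDIT4 (1.55) and SLC7A5 (1.53). In TC71 they were DDIT4 (2.83), DDIT3 (1.59) and ATF5 (1.58). TRIB3, at nearly the same level as DDIT3 in TC71, had 1.01 there, about the value of random sampling. In TC71 a single cell held up to 10 UMIs of DDIT3, 11 of ATF5 and 17 of DDIT4, against 3 of TRIB3. The spread without such cells was not computed, so single cells may weigh much in these values.

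Cells in a stress burst were sought with 4 genes that ATF4 raises and that are low at rest: DDIT3 (chr12:57516588-57521737), TRIB3 (chr20:362835-397559), CHAC1 (chr15:40952962-40956512) and SESN2 (chr1:28259518-28282491). A burst cell had at least 5 UMIs of these genes among its 10000. Most cells, 87.8% in CHLA9 and 70.7% in TC71, had 0 UMIs of the 4 genes. There were 8 burst cells among 4510 in CHLA9, 0.177% (95% Clopper-Pearson interval 0.0766 to 0.349), and 7 among 1670 in TC71, 0.419% (0.169 to 0.862). The intervals overlap, and they and the Poisson intervals cover counting error only. In CHLA9, 6 of the 8 cells sat at the limit and 8 more cells were 1 UMI below it. In TC71, 2 of the 7 sat at the limit, 3 cells were 1 UMI below it, and the highest cell had 11 UMIs. With at least 3 UMIs, a limit chosen after seeing the data, 0.576% of CHLA9 and 1.38% of TC71 cells were counted. Another seed for the thinning gave 5 burst cells in each line, and thinning to 5000 UMIs with the same limit gave 1 in CHLA9 and 4 in TC71.

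**Figure D3:**
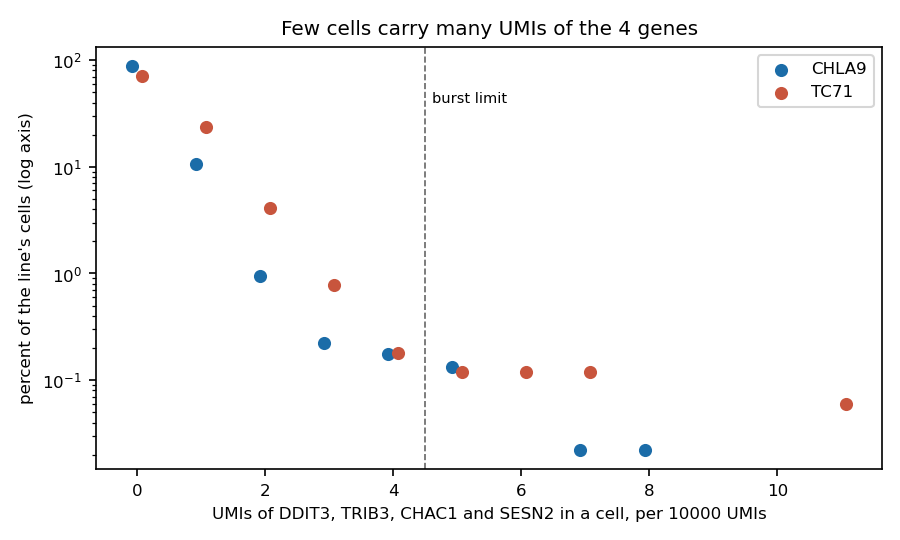
Percent of thinned cells of each line (log axis) by the number of UMIs of DDIT3, TRIB3, CHAC1 and SESN2 they hold among 10000, with the burst limit dashed. Most cells hold 0, 8 CHLA9 cells and 7 TC71 cells lie at or past 5 UMIs, and the highest, in TC71, holds 11.

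The burst cells were compared with the rest in depth, mitochondrial share and cycle. Their median totals were 42439 UMIs in CHLA9 and 34621 in TC71, against 34670 and 33672 in the other cells, and their median mitochondrial shares were 7.50% and 7.18% against 7.58% and 9.08%. By the cycle classes defined below, 1 of 8 burst cells in CHLA9 and 4 of 7 in TC71 were low in both S and G2M scores, against 18.1% and 13.8% of the other cells, and 3 and 2 were high in G2M. No burst barcode was shared by the libraries. The UMIs of the 4 genes were seldom from 1 gene: 7 of 8 CHLA9 cells and all 7 TC71 cells held at least 2 of the 4 among the thinned UMIs, and the exception in CHLA9 had 5 UMIs of DDIT3 alone. Single cells leaned to different genes. The CHLA9 cell with the most had 5 UMIs of SESN2, 2 of DDIT3 and 1 of CHAC1, and the TC71 cell with 11 had 10 of DDIT3 and 1 of TRIB3.

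The other members were read in these cells at full depth, as summed CPM over that of the line's remaining cells. The 4 genes that chose the cells are left out of the counts. Members with at least 10 CPM in the line were counted, 27 in CHLA9 and 28 in TC71. In CHLA9, 20 of 27 were at least 1.5-fold higher in the burst cells, where 9.06% of 8621 genes were, with a median of 2.44-fold against 0.985-fold over all genes. In TC71, 17 of 28 were, where 14.3% of 8156 genes were, with medians of 1.61-fold and 0.954-fold. Of 25 members counted in both lines, 10 passed in both: ATF5, CEBPB, ASNS, PHGDH, PSAT1, PSPH, AARS, GARS, WARS and SARS. When each burst cell was left out in turn, 3 members lost the call in CHLA9 (CEBPB, PYCR1 and WARS) and 5 in TC71 (PHGDH, SLC1A4, GARS, WARS and SARS). WARS dropped furthest, to 1.0-fold in CHLA9 and 1.07-fold in TC71. The members that passed in both lines whichever cell was left out were ASNS, ATF5, PSAT1, PSPH and AARS. Few cells stand behind each value, and cells of a library are not replicates, so no test was made.

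**Figure D4:**
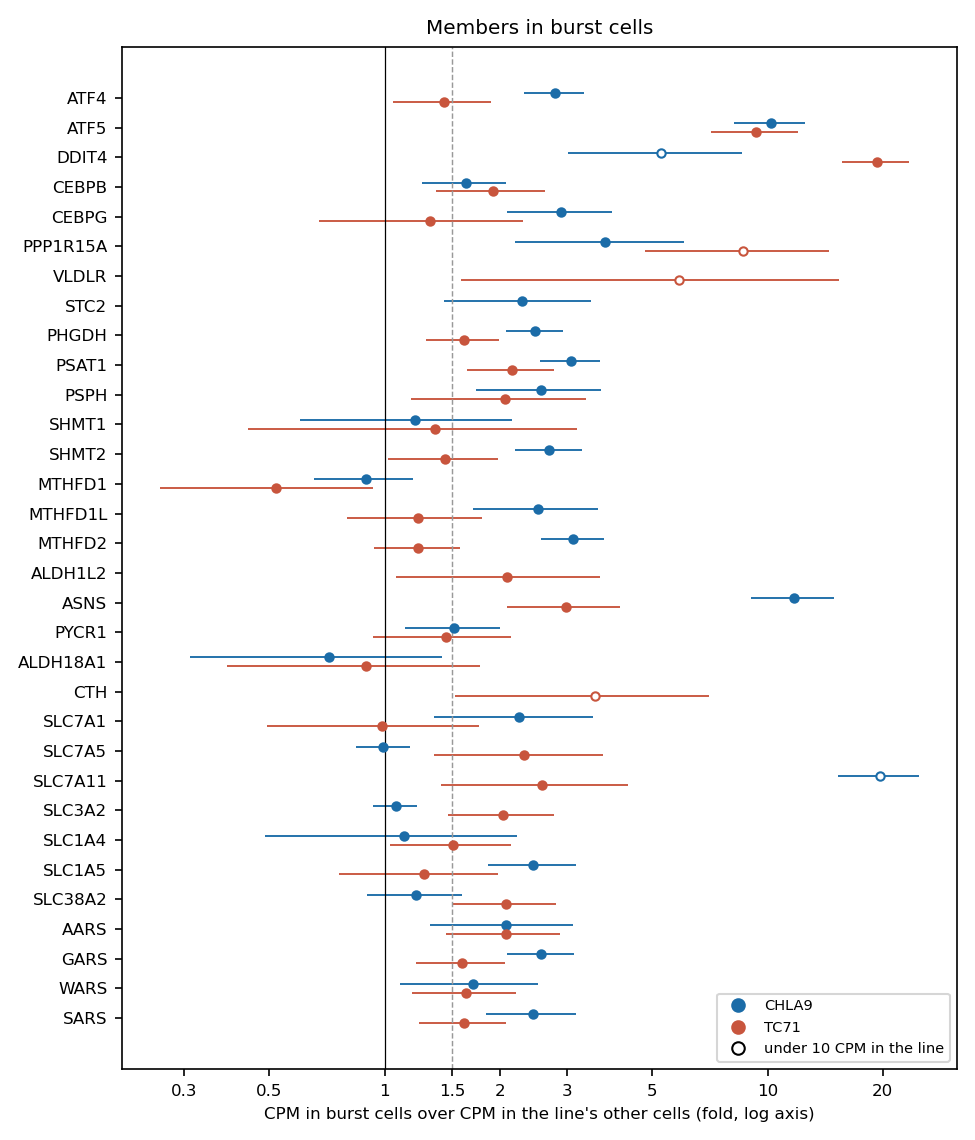
CPM of each member in the burst cells over that in the line's other cells (fold, log axis), with exact 95% intervals for the ratio of counts, CHLA9 in blue and TC71 in red, open points under 10 CPM in the line, and dashed line at 1.5-fold. ASNS and ATF5 in CHLA9 and DDIT4 and ATF5 in TC71 lie furthest right among filled points, while SLC7A5 and SLC3A2 lie near 1 in CHLA9 and near 2 in TC71.

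In CHLA9 the largest was ASNS, at 180 CPM in the 8 burst cells and 15.4 CPM in the others, 11.7-fold (9.06 to 14.9). It was seen in 6 of the 8 cells, which ranged from 0 to 530 CPM. ATF5 was 10.2-fold higher (8.18 to 12.5), in 5 of 8 cells, with up to 697 CPM in 1. ATF4 was 2.78-fold higher and seen in all 8 cells, from 113 to 562 CPM. At the resting level of ASNS or ATF5 a single cell can hold 0 UMIs by sampling, so cells with 0 are not shown to lack them.

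Serine synthesis genes were higher in CHLA9 burst cells, and 4 of the 5 genes of serine and glycine synthesis passed the limit. PHGDH was 2.47-fold higher, PSAT1 3.06-fold, PSPH 2.57-fold and SHMT2 2.70-fold. MTHFD2 was 3.11-fold and MTHFD1L 2.52-fold higher, while the cytosolic MTHFD1 was at 0.892-fold and SHMT1 at 1.2-fold. Of the synthetases, GARS was 2.57-fold higher, SARS 2.44-fold and AARS 2.07-fold, while WARS, at 1.7-fold, had 48.0% of its UMIs from 1 cell. CEBPG was 2.90-fold higher, CEBPB 1.63-fold, PPP1R15A 3.77-fold (2.03-fold without 1 cell) and STC2 2.29-fold. PYCR1, at 1.52-fold, just passed, and ALDH18A1 was at 0.718-fold.

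Among transporters in CHLA9 burst cells, the LAT1 genes that were so high in this line stood near their level in the other cells. SLC7A5 was at 0.992-fold (0.840 to 1.16) and SLC3A2 at 1.07-fold (0.935 to 1.21). SLC1A5 was 2.44-fold higher and SLC7A1 2.24-fold, while SLC38A2 was at 1.21-fold and SLC1A4 at 1.13-fold. SLC7A11 was just under 10 CPM in the line and so outside the count, but it was at 188 CPM in the burst cells and 9.59 CPM in the others, 19.6-fold (15.2 to 24.9). It was seen in all 8 cells, from 33.7 to 380 CPM. DDIT4, also outside the count, was at 42.4 and 8.05 CPM, 5.27-fold.

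In TC71 the order was different. DDIT4 was largest, at 425 CPM in the 7 burst cells and 22.1 CPM in the others, 19.3-fold (15.7 to 23.5). It was seen in all 7 cells, but 57.9% of its UMIs came from 1 cell with 1619 CPM, without which the ratio was 9.55-fold. ATF5 was 9.33-fold higher and seen in 4 of 7 cells, with up to 874 CPM in 1, and 5.66-fold without 1 cell. ASNS was 2.98-fold higher, at 147 CPM and 49.4 CPM in the others, and was seen in 6 of 7 cells, so its level in TC71 bursts was like that of CHLA9 bursts (180 CPM) over a higher resting level. ATF4 was at 1.43-fold (1.05 to 1.90), under the limit.

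Of the 7 transporters, 5 passed the limit in TC71. SLC7A11 was 2.57-fold higher on 14 UMIs, and 1.53-fold without 1 cell that held 50% of them. Also higher were SLC7A5 (2.31-fold), SLC38A2 (2.08-fold), SLC3A2 (2.04-fold) and SLC1A4 (1.51-fold), while SLC1A5 was at 1.26-fold and SLC7A1 at 0.986-fold. In serine synthesis PSAT1 was 2.15-fold, PSPH 2.06-fold and PHGDH 1.61-fold higher, and SHMT2 was at 1.44-fold and SHMT1 at 1.35-fold. The mitochondrial folate genes differed from those in CHLA9, with ALDH1L2 2.08-fold higher but MTHFD2 and MTHFD1L both at 1.22-fold. MTHFD1 was lower, at 0.519-fold (0.259 to 0.930), and at 0.281-fold without 1 cell. The 4 synthetases ranged from 1.59-fold for GARS to 2.07-fold for AARS. CEBPB was 1.92-fold higher and CEBPG was at 1.31-fold, PYCR1 at 1.44-fold and ALDH18A1 at 0.896-fold (0.572-fold without 1 cell). The low PPP1R15A, VLDLR and CTH, outside the count, were 8.64-, 5.88- and 3.55-fold higher, on 15, 4 and 8 UMIs. The intervals of VLDLR and CTH were wide, at 1.58 to 15.4 and 1.52 to 7.04.

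The members low in a line gave 0 to 3 UMIs in its burst cells and no fold: NUPR1, CBS and STC2 in TC71, and NUPR1, CBS, CTH, VLDLR and ALDH1L2 in CHLA9. The ratios in the lines were not tested against each other.

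Other lists were read in the burst cells too, where 9.06% of all genes in CHLA9 and 14.3% in TC71 were at least 1.5-fold higher. Of 7 further ATF4 targets counted in CHLA9, 4 were at least 1.5-fold higher, and of 10 in TC71, 7 were, with medians of 1.95- and 1.87-fold. HERPUD1, which ATF4 and ATF6 can both raise, was 3.48-fold higher in CHLA9, from under 10 CPM, and 3.43-fold in TC71. The folding genes of the endoplasmic reticulum gave medians of 0.984- and 0.865-fold, with 3 of 15 past 1.5-fold in CHLA9 and 3 of 16 in TC71. HSPA5, or BiP, their main chaperone, was at 0.554-fold in CHLA9, with 62.9% of its UMIs from 1 cell, and at 0.435-fold in TC71. Of 16 other synthetases, 5 in CHLA9 and 1 in TC71 passed 1.5-fold, of 13 eIF2 genes 1 and 1, of 11 other amino acid enzymes 4 and 3, and of 7 other folate genes 0 and 0. Heat shock genes gave medians of 0.819- and 0.642-fold and immediate early genes 1.15- and 0.954-fold. S genes had medians of 0.867- and 0.554-fold, with 1 and 0 of 42 past 1.5-fold. G2M genes had medians of 1.24- and 1.1-fold, with 14 of 54 past 1.5-fold in each line. Of the burst cells, 0 of the 8 and 0 of the 7 were in the high S class described next. The Ewing sarcoma markers had medians of 0.760- and 0.820-fold, and markers of other cell types had 0 UMIs in the burst cells.

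Outside the members and the lists, the 5 genes with the largest ratio in CHLA9 burst cells were TXNIP (5.27-fold), a thioredoxin inhibitor that limits glucose uptake, GRB10 (4.02-fold), an adaptor that restrains insulin signalling, ANXA1 (3.96-fold), a phospholipid-binding protein with 75% of its UMIs from 1 cell, UBALD2 (3.82-fold) and FYN (3.67-fold), a tyrosine kinase. In TC71 they were the RNA SNHG12 (9.70-fold, with 72.3% of UMIs from 1 cell), the histone gene HIST1H2BJ (8.65-fold, with 96.0% from 1 cell), TXNIP (6.72-fold), the splicing kinase CLK1 (6.37-fold) and HIST1H2AC (6.16-fold, with 51.0% from 1 cell). TXNIP was the 1 gene on both lists, in 7 of 8 and 6 of 7 burst cells.

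Members were also read by cell cycle class, taken from the mean of S and of G2M genes in thinned cells: a class in the top 25% for S and not for G2M, the reverse, and a class under the median of both. PCNA was 2.66-fold higher in high S over low cells in CHLA9 and 1.43-fold in TC71, and TOP2A 10.2-fold and 4.25-fold higher in high G2M over low cells. They are genes of the kinds that make the scores, so their rise describes the classes and is no independent check. MTHFD1 was 1.39-fold higher in high S cells in both lines. MTHFD2 was 1.65-fold higher in CHLA9 (1.56 to 1.74) and 1.1-fold in TC71 (1.03 to 1.17), and SHMT1 was 1.92-fold higher in CHLA9 and at 0.917-fold in TC71, where its interval of 0.726 to 1.16 spans 1. SLC7A1 was 1.63-fold and 1.32-fold higher in high S cells. SLC7A11 was 2.21-fold higher in high G2M cells of CHLA9 and 1.63-fold of TC71. STC2, in contrast, was lower in cycling CHLA9 cells, at 0.630-fold in high S and 0.563-fold in high G2M cells. The high S and high G2M classes of TC71 were set apart less by PCNA and TOP2A than those of CHLA9, and how far this touched the members' ratios was not tested.

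The barcodes above 15% mitochondrial UMIs, which the rule left out, carried a different pattern in TC71. There were 601 in TC71 and 181 in CHLA9, with medians of 9230 and 9328 UMIs. In TC71 all 7 transporters were 2.11- to 2.79-fold higher there than in kept cells, and they were the 7 of 30 members counted that passed 2-fold, where 7.11% of 8153 genes did and the median over all genes was 0.768-fold. SLC7A11 was at 60.6 CPM in these barcodes and 21.7 CPM in kept cells, SLC1A4 at 232 and 84.1 CPM, SLC3A2 at 209 and 80.2 CPM, and SLC7A5 at 73.9 and 29.4 CPM. Genes of synthesis and charging were lower, with PSAT1 at 0.497-fold, MTHFD2 at 0.505-fold and SARS at 0.482-fold, and ATF4 was at 0.652-fold. The low VLDLR, CBS and STC2, outside the count, were 3.30-, 2.63- and 2.13-fold higher, and ALDH18A1 was at 1.82-fold. Outside the members, HSPA5 was 2.99-fold, TIMP1 1.94-fold and STEAP1 1.85-fold higher in the same barcodes. ACTB was at 0.437-fold and GAPDH at 0.386-fold there. In CHLA9, 0 of 27 members passed 2-fold, VLDLR outside the count was 5.01-fold higher on 9 UMIs, and the highest transporter, SLC38A2, was at 1.36-fold. What these barcodes are was not tested.

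**Figure D5:**
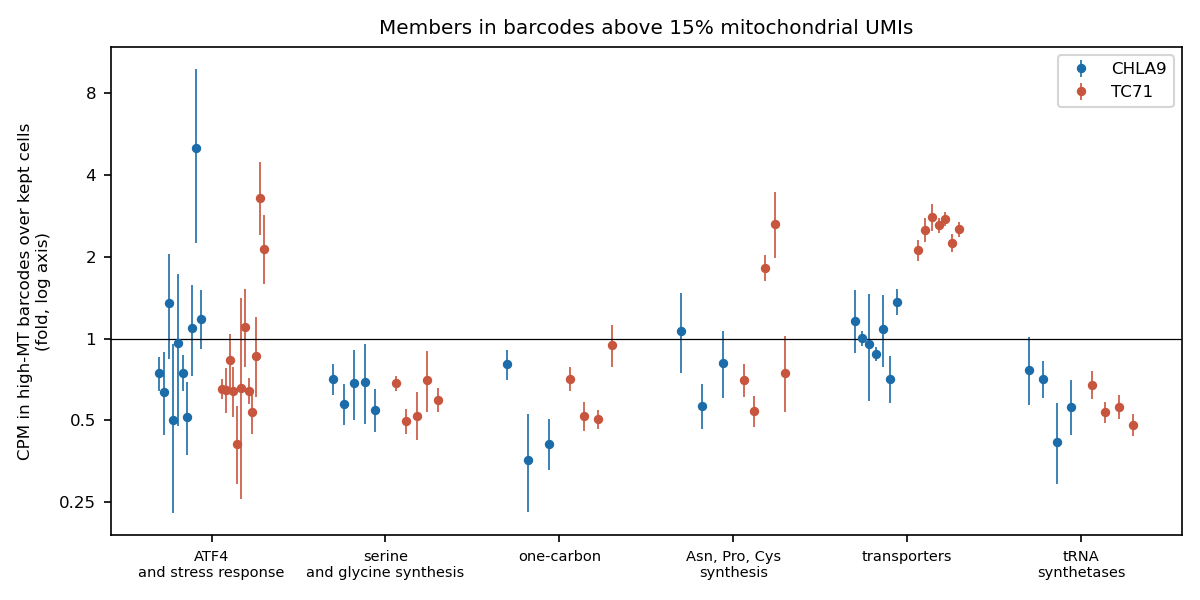
CPM of each member in barcodes above 15% mitochondrial UMIs over that in kept cells (fold, log axis), by role, with exact 95% intervals for the ratio of counts, CHLA9 in blue and TC71 in red. All 7 transporters of TC71 lie between 2.11- and 2.79-fold, while its synthetases and serine synthesis genes lie below 1.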

How the data were processed

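The deposited values are UMI counts per gene and barcode, which the authors made with Cell Ranger 3.1.0 on hg38 and did not normalize. The members and lists were chosen with earlier results of these data known. Cells passed the filters on UMIs, genes and mitochondrial share, and counts were summed per line as CPM with exact 95% Poisson intervals. Ratios have exact conditional intervals and shares exact Clopper-Pearson ones. Thinning used a seed of 1. The burst limit was the larger of 5 UMIs and 4 times the mean over lines.

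Named were members at least 2-fold apart between lines, with a rho of at least 0.1 in both lines, or at least 1.5-fold higher in burst cells of either line, the others by level or range, and of other genes the 5 highest by rho and by burst ratio per line. Alternatives covered filters, doublet scores, scaling, depth, seed, score and burst limit. A limit of 3 UMIs, thinning to 20000 UMIs and leaving out each burst cell were added after seeing the data. Tools were numpy 2.4.6, scipy 1.17.1, pandas 2.3.3, scanpy 1.11.5 with Scrublet, and matplotlib 3.10.9. Steps were tested on simulated data. GENCODE 44 gave the coordinates of genes on GRCh38, looked up by identifier, and RefSeq the promoters. Some genes of the lists are not reported here.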

Additional observations from a re-analysis of the deposited data

Results flagged for a closer look

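In TC71, some groups of members stood higher in barcodes outside the rule than in kept cells, while all members summed were lower. They summed to 2184 CPM above 15% mitochondrial UMIs and 2167 CPM under 5000 UMIs, against 2264 CPM in kept cells. Barcodes above 15% mitochondrial UMIs held 1012 CPM of the 7 transporters, against 402 CPM in kept cells, but 245 CPM of the ATF4 and stress group, against 357 CPM. Those under 5000 UMIs held 465 CPM of the transporters and 397 CPM of the ATF4 and stress group, against 402 and 357 CPM in kept cells.

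Ratios between cycle classes lay on opposite sides of 1 in the lines, each with an interval that left out 1, and no test was made of how far the lines differ in them. In high S over low cells, PHGDH was at 1.24-fold in CHLA9 and 0.924-fold in TC71, PSAT1 at 1.09- and 0.836-fold, and SLC1A5 at 1.21- and 0.809-fold. In high G2M over low cells, DDIT3 was at 1.61-fold in CHLA9 and 0.553-fold in TC71, and DDIT4 at 1.35- and 0.701-fold. In the same classes PHGDH was at 1.15- and 0.914-fold, PSAT1 at 1.22- and 0.919-fold, and SLC7A5 at 0.950- and 1.2-fold. Of the 7 TC71 burst cells, which held 111 UMIs of DDIT3 and 107 of DDIT4, 4 were in the low class and 2 in the high G2M class. Ratios without burst cells were not computed, so a few cells may weigh much in those of DDIT3 and DDIT4.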

How the results depend on the processing

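No paired analysis was possible because with 1 library a line there was nothing to pair and no test was made. The counts of members past 2-fold stayed within 1.5 times under every alternative run, at 3 for CHLA9 and 10 to 15 for TC71. The share of all genes past 2-fold was larger with looser level filters, which gave the 15 members. Of 8565 genes in the main run, 1267 were higher in CHLA9 and 600 in TC71. With a mean of at least 1 CPM, 2442 and 1593 of 12932 were. With no filter but a UMI in each line, 4249 and 3639 of 19616 were. The median log2 difference over members, -0.23, was -0.34 with TMM scaling, -0.48 with a mean of at least 1 CPM (37 members counted) and -0.37 with no filter but a UMI in each line (38 members). Of the 18 members with a log2 difference of at least 1 in size, passed or not, none changed sign under the 5 alternatives that recomputed levels. MTHFD2 fell inside 2-fold at 10% mitochondrial UMIs or less (-0.98), and SLC7A1 passed it with TMM scaling (-1.08) and with the mean over cells (-1.0). The median rho moved by 0.05 or less under every alternative. The share of burst cells in CHLA9 was 0.0221% with 5000 UMIs (1 cell) and 0.576% with a limit of 3 UMIs, and in TC71 1.38% with 3 UMIs. Another seed gave 5 burst cells in each line. Multiples of 3 and 6 times the mean left the limit at 5 UMIs and so changed nothing. Members past 1.5-fold in burst cells numbered 14 to 21 in CHLA9 and 13 to 25 in TC71. The 14 came from thinning to 5000 UMIs, with 1 burst cell, where 2033 of 8621 genes passed, against 781 in the main run. The 21 came from at most 10% mitochondrial UMIs, where 978 of 8622 genes passed. In TC71 the 13 came from a limit of 3 UMIs, where 284 of 8156 genes passed. The 25 came from 5000 UMIs, where 1230 of 8151 genes passed. Leaving out each burst cell in turn gave 18 to 20 and 16 to 20 members, without a recount over all genes. Without the top 8% of doublet scores, 0.121% of CHLA9 cells (5 cells) and 0.392% of TC71 cells (6 cells) were in a burst. There 19 members in CHLA9 and 18 in TC71 were past 1.5-fold, where 1228 of 8618 and 1282 of 8151 genes were. The median rho was 0.0322 and 0.0741. Past 2-fold were 3 members higher in CHLA9 and 11 in TC71, where 1254 and 599 of 8563 genes were. Scrublet called 7.74% of CHLA9 and 0.694% of TC71 cells doublets.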
